A study of Macaca mulatta with 22 samples.

Results

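Genes of the chromatin regulator families were followed through 11 lists of m6A peaks made from prefrontal cortex of rhesus macaque infants (Macaca mulatta). In m6A-seq an antibody pulls down RNA fragments that carry N6-methyladenosine, and stretches of transcript that are enriched in the pull-down are called as peaks. The genes were taken by symbol: those that begin with KMT, KDM, ARID, SMARC, HDAC, SETD, ASXL, SIRT, EHMT, NSD, PHF or BAZ, or with CHD or BRD and a digit, and BPTF, EP300 and CREBBP, leaving out KDM4B and CHD5. Of the 3671 genes with a peak in at least 1 animal, 68 met this rule, and they carried 228 of the 10069 peaks. Control animals were 2 males, A and B, and 4 females, C, C1, C2 and C3. Sevoflurane animals were 2 males, D and S1, and 3 females, F, S2 and S3, which had breathed about 2.5 to 3% of this volatile anaesthetic for 4 h near postnatal days 7, 21 and 35. All tissue carried the label of postnatal day 35, and no other agent, strain or genotype is given. The question was which of these transcripts carried m6A peaks, and whether they did so in the same animals after repeated anaesthesia.

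DNA in the nucleus is wound on histones, and many of the proteins encoded by these genes write, erase and read chemical marks on histones or slide and evict nucleosomes. Methyltransferases and acetyltransferases add marks, demethylases and deacetylases remove them, remodelling ATPases move nucleosomes, and proteins with bromodomains or PHD fingers bind marked histones. Many of these genes are known from inherited disorders of brain development. m6A on their mRNAs is added in the nucleus by a methyltransferase complex and can affect splicing, stability and translation of the transcript.

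A gene was counted in an animal if that animal's list placed at least 1 peak in it. Means are given as mean ± SD, over 6 animals for controls and 5 for sevoflurane unless another n is stated. Lists held 452 to 1210 peaks in controls and 852 to 1673 after sevoflurane, and genes with a peak numbered 407 to 1050 and 734 to 1349. Read totals were not used here and library depth is unknown, and RNA levels were not analysed here, so a peak that is present in more animals need not be a change in methylation. In tissue that mixes cell types, fewer cells of a type and less RNA per cell cannot be told apart. Of 9 neuronal markers 5 had a peak in any animal, among them NEFM, a neurofilament subunit, in all 11 animals, and RBFOX3, the nuclear protein NeuN, in 4 of 6 control and 3 of 5 sevoflurane animals. Of 5 astrocyte, 5 oligodendrocyte and 4 microglial markers 1 each had a peak, in 1 animal each, and of 3 endothelial markers none did. Neuronal markers with a peak numbered 2.33 ± 1.21 in controls and 2.2 ± 1.1 after sevoflurane, and ranged from 1 to 4 in both groups. Glial markers were too rarely found to compare.

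A small core of chromatin regulators carried peaks in nearly every animal, and most of the rest did so in a few. CHD3 was found in all 11 animals, KDM5C and HDAC5 in 10, CHD4 and KDM2A in 8, and BPTF, BRD10, HDAC4 and HDAC11 in 6. These 9 genes made up 13.2% of the 68, while 11.1% of all genes with a peak were found in 6 or more animals. A single animal supplied the peak of 30 of the 68 genes (44.1%), against 55.9% of all genes with a peak. Only the most widely found genes had a higher median strength within a list. The strongest peak of a gene was ranked by the authors' fold enrichment in its own list. It stood at a median percentile of 65.0 for the 9 genes found in 6 or more animals, with a range of 24.2 to 85.5. It stood at 36.3 for the 29 genes found in 2 to 5 animals, from 2.49 to 87.3, and at 36.5 for the 30 found in 1. These percentiles are a description within each list and compare no levels between animals.

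**Figure D1:**
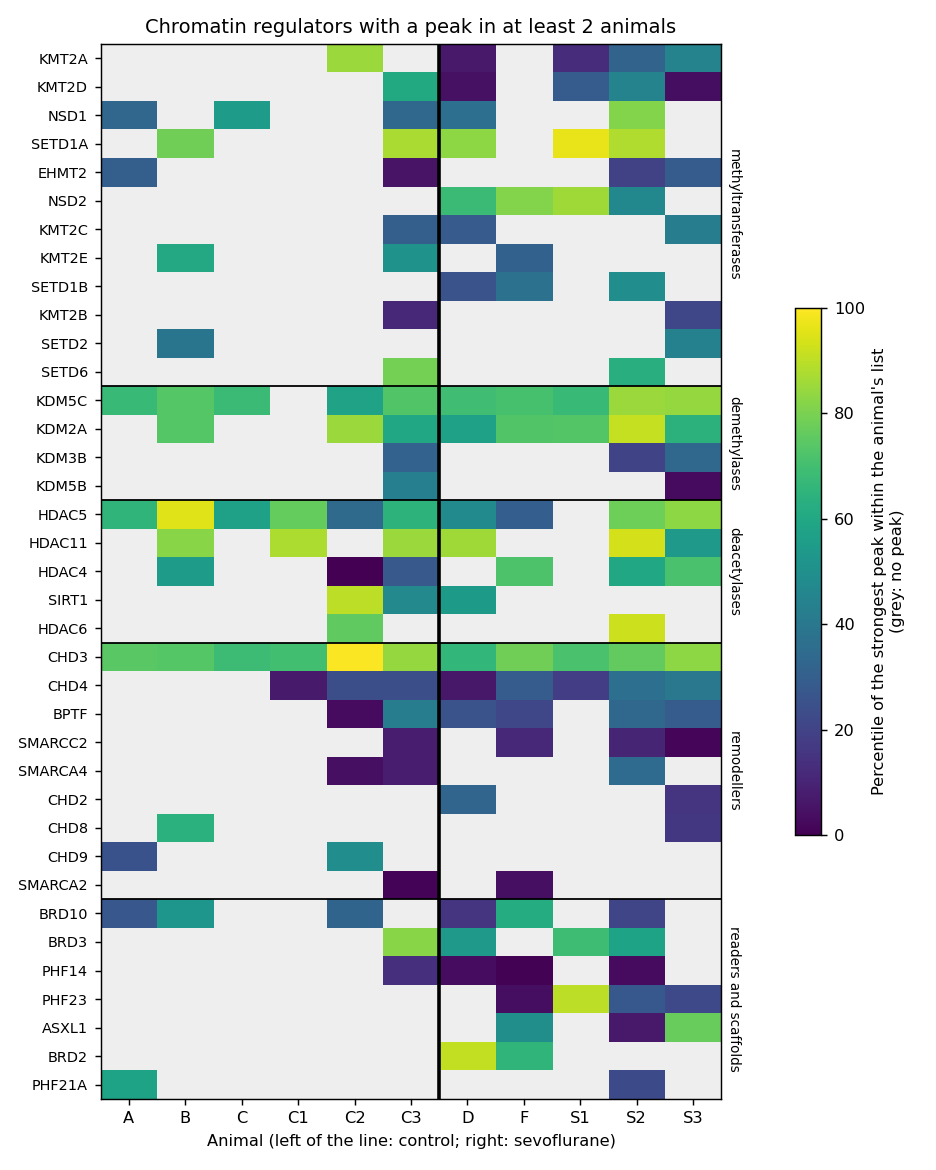
Each row is a chromatin regulator with a peak in at least 2 animals, grouped by role, and each column an animal. Colour gives the percentile of the gene's strongest peak by the authors' fold enrichment within that list, and grey marks no peak. CHD3, KDM5C and HDAC5 fill 11, 10 and 10 columns, and NSD2 and PHF23 have colour only to the right of the line that separates control from sevoflurane animals.

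CHD3 is the core ATPase of a nucleosome remodelling and deacetylase complex (NuRD). It had 31 peaks, 13.6% of all peaks in the 68 genes, and between 2 and 4 in every animal. The fold enrichment of its strongest peak was 10.6 at the lowest, 18.1 at the median and 75.7 at the highest in controls. After sevoflurane it was 10.7 in D, 20.4 in F, 11.1 in S1, 12.8 in S2 and 17.5 in S3, within the range of the controls. By percentile within a list, D stood at 66.1, below the lowest control at 68.5, and F, S1, S2 and S3 lay within the controls' range. Peaks of different animals that shared at least 1 bp of exon on the same strand were joined into regions, whose printed ends include the introns between exons. CHD3, on the plus strand of chromosome 16 between 7891791 and 7918522 (rheMac8 assembly), had 2 regions that all 11 animals shared. The first ran from 7895996 to 7897936, at a median of 19.4% of the way along the annotated transcript span, and was annotated to exon 3 of 39. The other ran from 7914200 to 7914931, at 85.1%, in exon 31. A region from 7901254 to 7902025 was present in 4 control and 4 sevoflurane animals. All 31 peaks of CHD3 spanned an exon junction, since each consisted of 2 or more exonic blocks.

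CHD4, its paralogue and the other main ATPase of NuRD, had weaker peaks in fewer animals. It was found in C1, C2 and C3 among controls and in all 5 sevoflurane animals (Fisher's exact p = 0.182). Its fold enrichment was 2.64, 4.06 and 3.23 in those controls and 2.53 in D, 4.10 in F, 3.42 in S1, 4.10 in S2 and 4.13 in S3. It stood at a median percentile of 24.2, where CHD3 stood at 74.5. Its commonest region lay on the minus strand of chromosome 11 from 6843058 to 6843528, at 10.9% of the span, and 3 control and 4 sevoflurane animals had it. The peak of D lay elsewhere, at 91.4%.

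The other remodellers were found in few animals. The class held 21 genes, on average 4 ± 3.52 in controls and 5.6 ± 2.70 after sevoflurane, with ranges of 1 to 9 and 3 to 10 that overlapped. BPTF, the largest subunit of the nucleosome remodelling factor NURF, had a peak in C2, C3, D, F, S2 and S3 (Fisher's exact p = 0.242). Enrichment was 2.44 in C2, 4.53 in C3, 3.6 in D, 3.40 in F, 3.90 in S2 and 3.49 in S3, with no gap between the groups. In C3 and the 4 sevoflurane animals the peak lay in the 5' UTR at the annotated transcript start, on chromosome 16 from 61338338 to 61338518 (plus strand). F had a second peak at 50.5% of the span, and the peak of C2 lay at 80.8%. SMARCC2, a core subunit of the BAF complex, had 1 region in C3, F, S2 and S3, always low in the list, at a median percentile of 9.23, with enrichment of 2.52, 2.81, 2.68 and 2.29. SMARCA4, the BAF ATPase BRG1, had a peak in C2, C3 and S2, with enrichment of 2.52, 2.51 and 4.03. These animals shared a region in exon 31 of 33, and S2 had a further peak in exon 27. Its paralogue SMARCA2 had one in C3 and another, at a different place, in F. CHD2, whose loss causes an epileptic encephalopathy, was found in D and S3, and CHD8, an autism-associated remodeller, in B and S3. CHD9 had a peak in A and C2, with enrichment of 4.15 and 7.09, and in no sevoflurane animal. ARID1B, CHD1, CHD1L, SMARCA1, SMARCAD1 and SMARCB1 had a peak in 1 sevoflurane animal each. ARID2, BAZ1B, BAZ2B, CHD6, SMARCAL1 and SMARCC1 had one in 1 control each, always C2 or C3. The enrichment of ARID1B was 3.52 in S1 and that of BAZ1B 7.54 in C3.

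Methyltransferases were the second largest class, with 16 genes, 2.67 ± 2.80 in controls and 6.2 ± 2.28 after sevoflurane. C1 had none and C3 had 8, while sevoflurane animals had 8 in D, 4 in F, 4 in S1, 9 in S2 and 6 in S3. KMT2A, the histone H3 methyltransferase MLL, had a peak in C2 and in D, S1, S2 and S3 (Fisher's exact p = 0.0801). The same test gave 0.0801 for KMT2D, an enhancer methyltransferase of the same family, found in C3 and in D, S1, S2 and S3. The enrichment of KMT2A was 24.6 in C2, and 2.54 in D, 3.19 in S1, 3.8 in S2 and 4.54 in S3. That of KMT2D was 7.54 in C3, and 2.41 in D, 4.12 in S1, 4.97 in S2 and 2.47 in S3. For both genes the highest enrichment was in the only control with a peak. KMT2A had 4 regions, the commonest in D and S1 alone, on chromosome 14 from 111349776 to 111353194 (plus strand), and all 5 peaks fell in exons 27 to 30 of 36. KMT2D had 5, of which chromosome 11 from 47333366 to 47333900, on the minus strand, held peaks of C3, D, S1 and S2.

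NSD2, which adds methyl groups to histone H3 in gene bodies, was found in D, F, S1 and S2 and in no control animal (Fisher's exact p = 0.0152, adjusted p = 0.606). Its enrichment was 11.7 in D, 22.7 in F, 29.9 in S1 and 5.17 in S2, and it stood at a median percentile of 74.9. The peaks fell in 3 regions, and the commonest, chromosome 5 from 2066894 to 2067074 on the plus strand, was a 3' UTR region of F and S1. The peak of D was labelled 3' UTR too. The peak of S2, labelled exon 16 of 21, lay further downstream, from 2081309 to 2081399, so these labels do not follow a single transcript. Its paralogue NSD1, the gene of Sotos syndrome, had a peak in both groups, in A, C, C3, D and S2 with enrichment of 4.86, 8.23, 3.86, 4.4 and 19.2, spread over 4 regions. SETD1A, a methyltransferase of active promoters that is linked to schizophrenia, was among the stronger members. Its enrichment was 24.8 in B, 21.1 in C3, 24.2 in D, 53.8 in S1 and 25.6 in S2, and all 5 animals shared chromosome 20 from 28792483 to 28792692 on the plus strand, annotated as 3' UTR. SETD1B, its paralogue, had a peak in D, F and S2 and in no control, each at another place (Fisher's exact p = 0.0606), with enrichment of 3.6, 4.74 and 5.44. EHMT2, the methyltransferase G9a, was found in A, C3, S2 and S3, with enrichment of 4.6, 2.45, 3.08 and 3.49. KMT2E was found in B, C3 and F, with 9.43, 5.66 and 4.21, and KMT2C in C3, D and S3. KMT2B, SETD2 and SETD6 had a peak in 1 animal of each group. KMT5A was found in C only, EHMT1 in D, SETD5 in F and SETD7 in S2.

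EP300 and CREBBP, the paired histone acetyltransferases, had a peak in 1 sevoflurane animal each, D and S3, and in no control. The single EP300 peak was the only one of the 228 for which the annotation column named another gene than the one in which it was called.

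Among demethylases, which numbered 9, KDM5C and KDM2A had 11 and 8 of the 29 peaks. Counts per animal were 1.67 ± 1.37 in controls, from 0 to 4, and 3.6 ± 0.894 after sevoflurane, with 3 in D, F and S1, 4 in S2 and 5 in S3. KDM5C, an X-linked demethylase whose loss causes intellectual disability, had a peak in every animal but C1, with enrichment of 9.04 to 17.7 in 5 controls. It was 12.6 in D, 13.6 in F, 9.97 in S1, 21.6 in S2 and 19.8 in S3. All 10 shared a region on chromosome X from 52602031 to 52602495 (minus strand), at 87.4% of the span and 4.70 kb before the transcript end. KDM2A, which binds unmethylated CpG islands, had a single region on chromosome 14 from 7139678 to 7139977 (minus strand), at 94.5% of the span. It was in B, C2 and C3 and in all 5 sevoflurane animals (Fisher's exact p = 0.182), with enrichment of 17.7, 24.6 and 7.17 in those controls. After sevoflurane it was 7.70 in D, 14.8 in F, 12.0 in S1, 29.8 in S2 and 7.57 in S3. KDM3B was found in C3, S2 and S3 and KDM5B in C3 and S3. KDM2B, KDM3A, KDM4A, KDM5A and KDM6B had a peak in 1 sevoflurane animal each and in no control. For KDM5A the symbol column of the deposited table named the neighbouring SLC6A13, and the gene identifier named KDM5A.

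Deacetylases had no higher mean count after sevoflurane. The class held 6 genes, with 2.67 ± 1.63 in controls, from 1 to 5, and 2.4 ± 1.52 after sevoflurane, from 0 in S1 to 4 in S2. HDAC5, a class IIa deacetylase that shuttles between nucleus and cytoplasm with neuronal activity, had a peak in all 6 controls and in D, F, S2 and S3, but not in S1. Its enrichment in controls was 5.13 at the lowest, 10.8 at the median and 56.6 at the highest, and 5.81 in D, 4.16 in F, 14.1 in S2 and 17.5 in S3. The 10 peaks made up 1 region on chromosome 16 from 49951881 to 49952150 (minus strand), at 71.1% of the span. HDAC4, of the same class, was found in B, C2, C3, F, S2 and S3, at 2 places. B, F, S2 and S3 had it near the transcript end, on chromosome 12 from 121784614 to 121784794 (minus strand). Another, from 121914549 to 121927776, was in C2 and C3 and in no sevoflurane animal. Its enrichment was 7.96 in B, 2.23 in C2, 3.42 in C3, 14.4 in F, 7 in S2 and 9.98 in S3. Within the lists HDAC4 stood at percentiles of 54.8, 0.213 and 28.1 in B, C2 and C3. In F, S2 and S3 it stood at 71.9, 59.6 and 71.4. Enrichment overlapped between the groups and percentiles did not, and neither compares levels between animals. HDAC11, the class IV deacetylase, stood highest of the 9 widely found genes, at a median percentile of 85.5, with enrichment of 28.3 in B, 23.1 in C1, 19.6 in C3, 26.4 in D, 34.1 in S2 and 5.59 in S3. Its commonest region, chromosome 2 from 52894792 to 52895030 on the minus strand, was found in 3 controls and 2 sevoflurane animals, and a neighbouring region from 52895417 to 52895626 in D, S2 and S3 and in no control. SIRT1, a deacetylase that depends on NAD, had a peak in C2, C3 and D with enrichment of 28.4, 5.13 and 7.15, HDAC6, which acts on tubulin, in C2 and S2, and SIRT3, a mitochondrial enzyme, in C2.

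The readers and scaffolds, 14 genes by family name, had 1.5 ± 1.05 in controls, from 0 to 3. Sevoflurane animals had 4.8 ± 1.79, with 5 in D, 7 in F, 3 in S1, 6 in S2 and 3 in S3. PHF23, a PHD finger protein, had a peak in F, S1, S2 and S3 and in no control (Fisher's exact p = 0.0152, adjusted p = 0.606). Its enrichment was 2.46 in F, 35.9 in S1, 3.51 in S2 and 3.17 in S3, so that 1 animal stood far above the others. Unlike NSD2, all 4 animals shared a region, on chromosome 16 from 7212785 to 7212994 (minus strand). ASXL1, a scaffold of a deubiquitinase that acts on histone H2A, was found in F, S2 and S3 and in no control (Fisher's exact p = 0.0606), with enrichment of 6.16, 2.56 and 12.8. Of the bromodomain genes of the BET family, BRD2 was found in D and F, and BRD3 in C3, D, S1 and S2 with enrichment of 18.1, 7.04, 10.5 and 6.81. BRD10 had a peak in A, B, C2, D, F and S2, with enrichment of 4.32, 7.58, 4.86, 2.96, 9.08 and 3.14, and shared a region at the transcript start, on chromosome 15 from 78426749 to 78427047 (plus strand). PHF14 had a peak in C3, D, F and S2 at a median percentile of 3.08, with enrichment of 2.75, 2.34, 2.21 and 2.35, and PHF21A in A and S2. ARID4A, PHF1 and PHF20L1 were found in 1 sevoflurane animal each, and BRD7, PHF3 and PHF10 in 1 control each.

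Of the 68 genes, 35 had a peak in 2 to 9 animals and could be compared one by one. With two-sided Fisher's exact tests run over all 1486 such genes, 2 of the 35 (5.71%), NSD2 and PHF23, were called more often after sevoflurane at an unadjusted p under 0.05, where 1.82% of all tested genes were. In the other direction 0 of 35 were called, as were 0% of all tested genes. After Benjamini-Hochberg adjustment over the 1486 genes 0 were called in either direction (0%), the smallest adjusted p being 0.606. The smallest Fisher's exact p that 6 against 5 animals allow is 0.00216, and none of the 35 reached it. A larger share of sevoflurane than of control animals was seen for 30 of the 35 (85.7%), close to the 83.2% of all tested genes. With 5 against 6 animals, a gene found in equal numbers of both groups counts toward sevoflurane here, and group size alone sets its direction. Such genes were BRD10, HDAC4 and HDAC11, with 3 and 3, and EHMT2, with 2 and 2. So were CHD8, HDAC6, KDM5B, KMT2B, PHF21A, SETD2, SETD6 and SMARCA2, with 1 and 1. A larger share of controls was seen for 5 (14.3%), against 16.8%. The median difference in the share of animals was 23.3 percentage points for the 35 genes and 23.3 for all tested genes. Peaks in sevoflurane animals alone were found for 26 of the 68 genes (38.2%), against 44.9% of all genes. Peaks in control animals alone were found for 12 (17.6%), against 22.8%. In direction, these genes leaned to the sevoflurane animals about as far as all genes did. With 1 animal left out, 4 of the chromatin regulators were called without F (KMT2A and KMT2D besides NSD2 and PHF23) and without S1 (ASXL1 and SETD1B besides them). Without C2 or C3, 3 were called, KMT2A or KMT2D being the third, and without D or S3 ASXL1 or SETD1B was. The calls over all genes rose with them, from 27 to 56 without F, 85 without S1, 40 without C2, 59 without C3, 55 without D and 69 without S3.

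**Figure D2:**
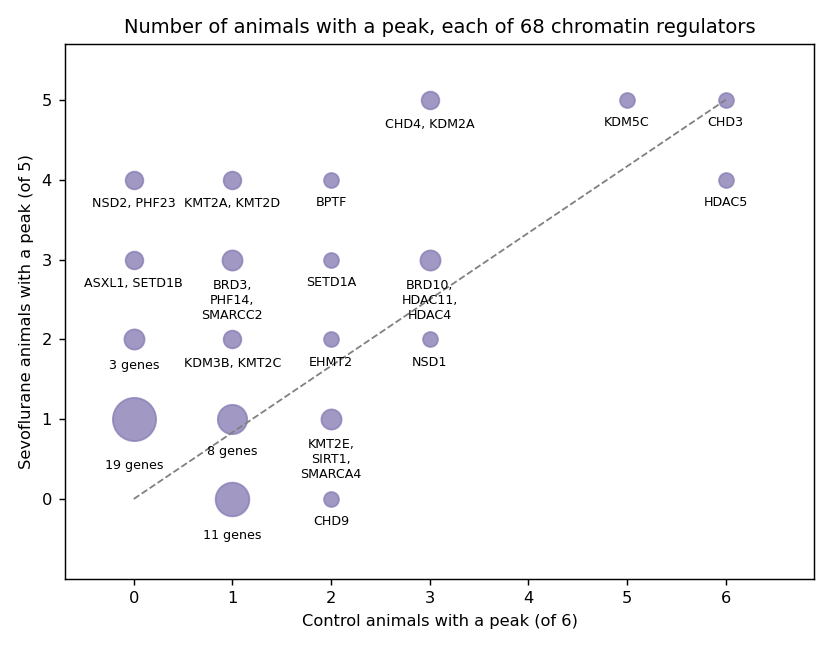
Each point is a number of control animals (horizontal) and of sevoflurane animals (vertical) with a peak, and its area grows with the number of the 68 genes there, which are named at most points that hold up to 3. The dashed line marks equal shares of both groups. NSD2 and PHF23 lie at 0 control and 4 sevoflurane animals, and 19 genes lie at 0 and 1.

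The number of chromatin regulators with a peak followed the number of all genes with a peak. In controls it was 4 at the lowest, 9.5 at the median and 28 at the highest, and after sevoflurane 24 in D, 21 in F, 13 in S1, 29 in S2 and 28 in S3. The mean was 12.5 ± 9.03 and 23 ± 6.44, a ratio of 1.84, beside a ratio of 1.74 for all genes with a peak. The groups overlapped, through C3 with 28 and C2 with 18 against 13 in S1. The 5 animals with the longest lists, C3, D, F, S2 and S3, were also the 5 with the most of these genes. As a share of the genes with a peak, they were 1.90 ± 0.759% in controls, from 0.983% in C1 to 2.80% in C2. After sevoflurane they were 2.18 ± 0.298%, with 2.41% in D, 2.04% in F, 1.77% in S1, 2.15% in S2 and 2.52% in S3, all within the range of the controls. The difference of 0.275 percentage points was smaller than the SD of the controls. In males, the share came to 1.82 ± 0.548% for the control pair (n = 2) and 2.09 ± 0.453% for the sevoflurane pair (n = 2). Among females it was 1.95 ± 0.923% (n = 4) and 2.24 ± 0.250% (n = 3).

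**Figure D3:**
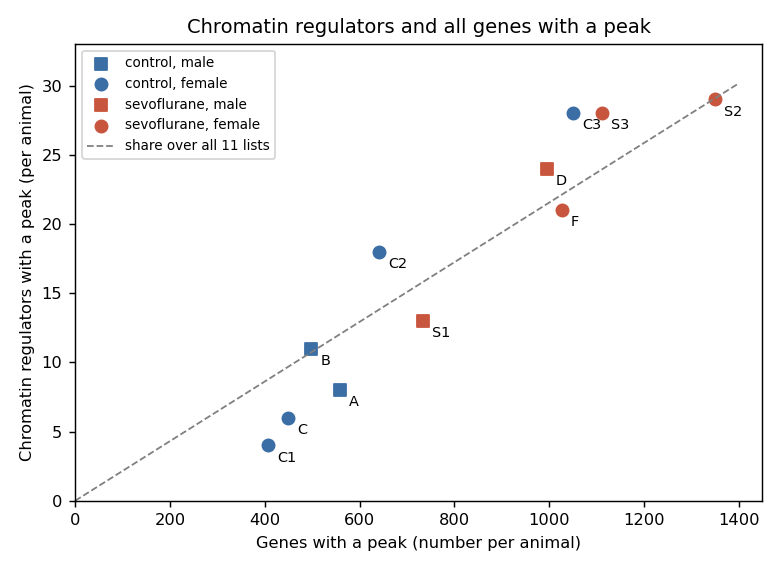
Number of chromatin regulators with a peak against the number of all genes with a peak, 1 point per animal, with sex by shape and group by colour. The dashed line is the share over all 11 lists, and the control animal C3, with 28 of 1050 genes, lies beside the sevoflurane animals D, F and S3.

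When the lists were cut to the same length, the difference in number was no longer there. With the 452 peaks of smallest p-value kept in each list, the length of the shortest, 27 of the 68 genes had a peak, 7.33 ± 2.34 in controls and 6.8 ± 2.17 after sevoflurane. CHD3 was still found in 6 controls and 5 sevoflurane animals, KDM5C in 5 and 5, HDAC5 in 6 and 3, CHD4 in 3 and 4, and SMARCC2 in 1 and 3. PHF23 was left in 1 sevoflurane animal, and NSD2, ASXL1, SETD1B and BPTF in no animal. Of the 30 tested genes with a larger share of sevoflurane animals, 9 kept that direction, 8 turned to a larger share of controls and 13 had no peak left in any animal. Among the 8, BRD10, HDAC4 and HDAC11 had begun with 3 animals in each group, and CHD8, PHF21A and SETD2 with 1. Of the 9, SETD1A and SMARCA2 had 1 animal in each group at this length, so only group size kept their direction. With peaks of a p-value of at most 1e-05, 44 genes had a peak, 7.83 ± 5.49 in controls and 13.6 ± 3.51 after sevoflurane. NSD2 and PHF23 were each found in 2 sevoflurane animals and 0 controls at that threshold (Fisher's exact p = 0.182), and KMT2A in 1 control and 0 sevoflurane animals.

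**Figure D4:**
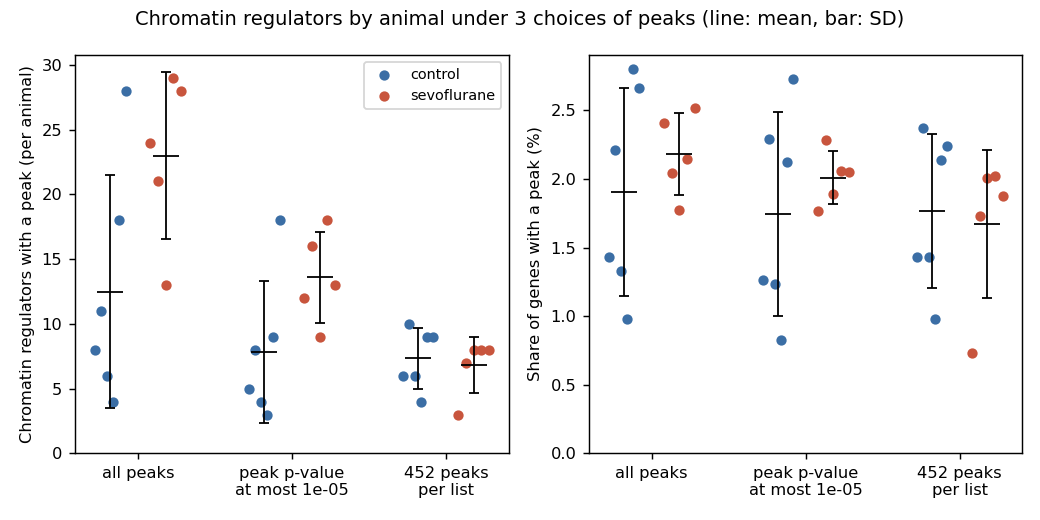
Chromatin regulators with a peak per animal (left, number, and right, percent of all genes with a peak) for all peaks, for peaks with a p-value of at most 1e-05 and for lists cut to the 452 peaks of smallest p-value. Points are animals, horizontal lines means and bars SD. At equal length the means are 7.33 in controls and 6.8 after sevoflurane.

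Peaks often fell at different places of a transcript in different animals. The 228 peaks joined into 116 regions, of which 35 were found in at least 2 animals. Of the 38 genes with a peak in at least 2 animals, 12 had a region that every animal with a peak shared, and 11 had no region in common between any animals. CHD3, HDAC5, KDM5C, KDM2A, BRD10, SETD1A and PHF23 were among the 12, and SETD1B, CHD2 and CHD8 among the 11. Along the transcript span, 39.2% of the peaks in these genes had their midpoint beyond 80% of that span, counted from its 5' end, and 37.3% of the peaks in all other genes did. Before 20% of the span lay 25.1% and 25.0%. Counted once per region, 41 of 115 regions (35.7%) lay beyond 80% and 23 (20.0%) before 20%. By animal, the share beyond 80% was 37.2 ± 9.86% in controls and 42.9 ± 13.7% after sevoflurane, and the groups overlapped. A few genes carried the shares of the classes. Demethylases had 20 of 29 peaks (69.0%) beyond 80%, of which 10 were in KDM5C and 8 in KDM2A. Readers and scaffolds had 16 of 37 (43.2%) before 20%, with 8 in BRD10 and 4 in PHF14. Remodellers had 26 of 74 (35.1%) before 20%, of which 11 were in CHD3, in the region at a median of 19.4%, 7 in CHD4 and 5 in BPTF.

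**Figure D5:**
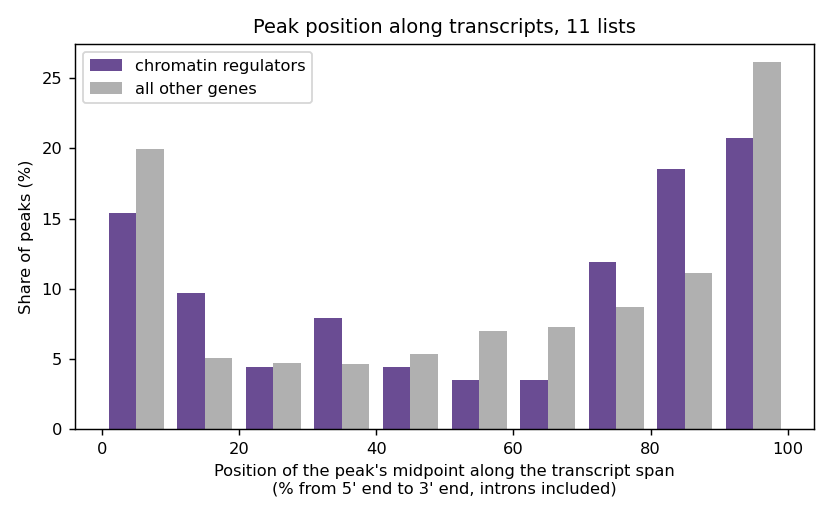
Share of peaks in 10 equal bins of the annotated transcript span, introns included, for the chromatin regulators and for all other genes with a peak, over the 11 lists. From 90 to 100% of the span the shares are 20.7% and 26.1%, and from 80 to 90% they are 18.5% and 11.2%.

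Peaks of these genes spanned exon junctions more often than those of other genes in all 11 animals, but CHD3 had a large part in this. Peaks of 2 or more exonic blocks made up 48.7% of the peaks in the 68 genes and 35.6% of all other peaks. Without CHD3 the first share was 40.6%, and it lay above that of other genes in 5 of 11 animals. On the plus strand, where the authors' annotation follows the direction of the transcript, 18 of 118 peaks in these genes (15.3%) were labelled 3' UTR, against 25.7% in other genes. Another 13 were labelled 5' UTR, against 18.8% in other genes, and the rest exon. Without CHD3 the shares were 20.7% and 14.9%. For other genes on the minus strand the labels ran against the transcript, with a median position of 19.1% for peaks labelled 3' UTR and 87.8% for those labelled 5' UTR. In the chromatin regulators on that strand the 6 peaks labelled 3' UTR had a median position of 79.96% and the 2 labelled 5' UTR one of 48.1%. Labels and exon numbers of minus-strand genes were not used. The annotated transcripts spanned a median of 72.2 kb in these genes and 34.9 kb in the others.

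Chromatin genes outside these families showed a like pattern. Of 101 other chromatin genes listed, 49 had a peak, 10.5 ± 7.31 in controls, from 3 to 23, and 19.2 ± 3.70 after sevoflurane, from 15 to 24. Of the 30 that could be tested, 28 had a larger share of sevoflurane animals and 2 a larger share of controls, and 0 were called at a Fisher's exact p under 0.05 in either direction. Over all tested genes 83.2% had a larger share of sevoflurane animals and 16.8% of controls, and 1.82% were called more often after sevoflurane. Equal numbers again count toward sevoflurane, as for ATRX with 3 and 3 and KAT6B with 2 and 2. The same holds for BRPF3, CBX7, CBX8, DNMT1, DPF3, EP400, JARID2, PRDM2, SMC1A and TRRAP, with 1 and 1. ASH1L, a histone methyltransferase, was found in all 11 animals at a median percentile of 95.2, above every one of the 68 genes. GATAD2B, a NuRD subunit like CHD3, was found in 5 controls and 5 sevoflurane animals, and ACTL6B, the neuronal BAF subunit, in 5 and 4. RBBP7, another NuRD subunit, was found in 3 and 5, the same counts as CHD4.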

How the data were processed

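m6A was measured by immunoprecipitation of fragmented total RNA, per the labels' protocols. Trimming and alignment tools are listed in the submitters' processing notes as HISAT2 2.1.0, StringTie, Trim Galore 0.5.0 and cutadapt, with the build rheMac8. The peak caller is not given in the sources used here. The authors deposited 1 peak list per animal that gives for each peak a fold enrichment (a ratio), a p-value, and the logarithms of that p-value and of a false discovery rate as negative scores, per the file headers. The largest p-value was 0.001 and the smallest fold enrichment 2.06. The 11 input samples were not analysed here. Starts count from 0, so 1 was added.

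Genes are those in which a peak was called, without version. Symbols came from a table of gene names for 3235 of 3671 identifiers and from the lists for 251 more, and 185 had none. Only the table named 4 of the 68 genes. Position is the peak's midpoint in the annotated transcript. Values without CHD3, 1 value per region and the annotation of plus-strand genes alone were chosen after seeing the data.

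Presence was compared with two-sided Fisher's exact tests over all genes found in 2 to 9 animals, with Benjamini-Hochberg adjustment (Python 3.11.15, scipy 1.17.1 for checks), tested on simulated lists. Numbers and shares over the 68 genes carry no p-value. Genes named with their enrichment were KMT2A, KMT2D, ASXL1, BPTF and CHD3, those with a Fisher's exact p under 0.05, up to 12 leaning to sevoflurane and 8 to controls, those in at least 6 animals and the most frequent of each family, and others are given with their animals. The values of 1 gene are not reported here, and it stays in the counts. The genes, lists and rules were chosen with earlier results of these data known. Labels name separate animals.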

Additional observations from a re-analysis of the deposited data

How the results depend on the processing

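The difference in mean number of chromatin regulators per animal, 10.5 with all peaks, turned to -0.533 when lists were cut to one length, and that in their share, 0.275 percentage points, to -0.0923. No family member and 4 genes in all were then called more often after sevoflurane, against 2 and 27. At peak p-values of at most 1e-05 the calls were 0 and 10. The share difference also turned, to -0.00403, among animals with numbered names alone. With the replicate number as a block the calls were 1 of the family genes, NSD2, and 19 genes in all, and the difference in number was 10. Whether the numbers pair the animals is unknown. Deviations of C1 and S1, C2 and S2, and C3 and S3 correlated at 0.0628, 0.000159 and 0.0234. Of these controls only C1 correlated best with its own number. With no reference to judge such correlations by, they cannot decide whether the animals were paired. Leaving out 1 animal at a time gave differences of 8.8 to 13.6 in number and 0.0903 to 0.455 percentage points in share. The calls ran from 2 to 4 family genes and from 31 to 85 genes in all (85 when S1 was left out, 69 for S3, 59 for C3, 56 for F, 55 for D and 46 for S2). A smaller group also shifts which counts can reach p under 0.05. NSD2 and PHF23 were called in each of these. KMT2A joined without C2 or F, KMT2D without C3 or F, ASXL1 without D or S1, and SETD1B without S1 or S3 (exact p from 0.0333 to 0.0476). Fewer peaks or animals entered in several of these settings, and the cause was not tested for any of these changes.

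Direction turned in 9 of 27 named genes. At equal length these were KMT2A, HDAC4 and PHF14 (exact p = 1 each) and BRD10, HDAC11 and SMARCA4 (0.455 each). At the stricter p they were KMT2A and SMARCA4 (1 each). In males alone they were BRD10, HDAC4, EHMT2 and SIRT1 (1 each), in females alone KMT2E (1), among single-letter names EHMT2 and KMT2E (1 each) and SIRT1 (0.40), and EHMT2 without S2 or S3 (1). With all peaks BRD10, HDAC4 and HDAC11 had 3 animals in each group and EHMT2 had 2, so only group size gave them a direction. SMARCA4 at the stricter p, and KMT2E in females alone and among single-letter names, turned only to 1 animal in each group. Males alone, single-letter names and numbered names cannot reach p under 0.05, so calls there were not counted. In females alone ASXL1 and PHF23 were called. Depth per library is unknown and limits what a missing peak shows.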
